A study of Homo sapiens with 4 samples.

Results

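Binding of PPARG was examined around 8 genes of lipid droplets and fatty acid uptake: PLIN1, PLIN2, PLIN5, CIDEC, HILPDA, ANGPTL4, CD36 and FABP4. A peak, that is a stretch of genome enriched in the precipitated DNA, was counted for a gene when its midpoint lay within 100 kb of the gene's span on genome build hg19, with spans given to the whole kb. This rule took 15 of the 3644 peaks in the lists, 6 of 1419 in NCI-H1993 and 9 of 2225 in NCI-H2347. NCI-H1993 and NCI-H2347 are established human lung adenocarcinoma cell lines, and each group was a single chromatin immunoprecipitation (ChIP-seq) library of 1 line. Both lines carried a bacterial artificial chromosome (BAC) transgene for PPARG with the LAP tag, of which EGFP is a part, and the tag was the target of the goat anti-EGFP antibody used for precipitation. The cells were grown in serum-containing medium, and the labels give no ligand treatment, although the names of both lists carry the letters PIO, which the labels do not explain. An untagged line is not among the samples, and the sources used here do not say whether each line is 1 clone or a pool. The input libraries, 1 per line, were not analysed here. The number of reads behind each list is unknown, and with 1 library per line no difference between the lines has a replicate check. The lists hold positions and scores but no expression, so the identity of the lines could not be checked against marker genes.

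PPARG is a nuclear receptor that binds DNA together with RXR, typically at a direct repeat of the hexamer AGGTCA with a single base between the copies, called DR1, and it is activated by fatty acids and by thiazolidinedione drugs. In fat cells it drives the genes that take up, bind and store fatty acids. Perilipins coat the lipid droplet and control access of lipases to it, CIDEC enlarges droplets by fusion, and HILPDA and ANGPTL4 hold back lipases inside and outside the cell. CD36 and FABP4 carry fatty acids across the plasma membrane and through the cytoplasm. Several of these genes are textbook PPAR targets.

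The sequence under the peaks is on hg19 and was not used here, so DR1 was searched in RefSeq promoters on GRCh38.p14 (250 bases before to 50 after each transcript start, both strands, up to 2 mismatches among the 12 fixed bases). The table held 12 promoters of 6 genes, and FABP4 and HILPDA had no entry. A match was present in 1 of the 12 promoters, against 2.97% of all 35116 promoters. It was 1 of the 6 promoters of CD36, so 1 of the 6 genes had a match. With 1 mismatch allowed no promoter of the 6 genes matched, and 0.336% of all promoters did. The 250 bases before the start are shown for the CD36 promoter that held the match, at chr7:80638266-80638515 on the plus strand, with the 13 matched bases in capitals. The match reads DR1 on the opposite strand, spans bases 104 to 116 of the window counted from its 5′ end, and ends 134 bases before the window's last base. They are also shown for ANGPTL4, at chr19:8363905-8364154 on the plus strand, and for PLIN2, at chr9:19127493-19127742 on the minus strand. These are the genes with the highest-scoring sites described next. Their best fits to DR1 in the 300-base window had 4 and 5 mismatches, so nothing is in capitals.
CD36: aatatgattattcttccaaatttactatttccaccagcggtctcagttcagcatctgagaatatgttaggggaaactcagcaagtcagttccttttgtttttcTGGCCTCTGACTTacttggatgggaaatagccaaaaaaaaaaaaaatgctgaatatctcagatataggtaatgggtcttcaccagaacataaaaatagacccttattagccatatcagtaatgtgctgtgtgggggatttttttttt
ANGPTL4: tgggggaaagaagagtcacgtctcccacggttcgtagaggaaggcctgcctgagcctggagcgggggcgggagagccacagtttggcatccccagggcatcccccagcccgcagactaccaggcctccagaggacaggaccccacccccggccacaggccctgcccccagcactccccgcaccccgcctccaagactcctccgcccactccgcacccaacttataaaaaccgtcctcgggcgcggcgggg
PLIN2: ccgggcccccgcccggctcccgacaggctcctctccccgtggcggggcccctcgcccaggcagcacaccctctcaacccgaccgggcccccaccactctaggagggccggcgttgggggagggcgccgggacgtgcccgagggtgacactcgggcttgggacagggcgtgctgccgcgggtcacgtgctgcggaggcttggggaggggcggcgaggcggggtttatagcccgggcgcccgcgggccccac
A match in these letters is a description of the reference, and a window without one says nothing of binding elsewhere in the gene.

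PPARG peaks lay near 4 of the 8 genes in NCI-H1993 (PLIN2, ANGPTL4, FABP4 and CD36) and near 6 of 8 in NCI-H2347 (the same 4 with CIDEC and HILPDA). PLIN1 and PLIN5 had none in either line. For comparison, the chromosomes were divided end to end into windows of 214 kb, the width around a gene with the median span. Of these 13399 windows, 8.57% held an NCI-H1993 peak and 12.3% an NCI-H2347 peak. The windows were not limited to ones that hold genes, and the 8 genes were chosen with earlier results of these data known, so this is a background and not a test. The 8 gene windows cover 2.02 Mb and held 2.98 peaks per Mb for NCI-H1993 and 4.46 for NCI-H2347. Over the whole 2867 Mb of windows the densities were 0.488 and 0.769 peaks per Mb. The density in the sequence around the gene windows was not computed, so no local background is given. CD36 has the widest window, 511 kb, and windows of that width held a peak in 17.9% of cases in NCI-H1993 and 24.6% in NCI-H2347. Without CD36, 3 of 7 genes had a peak in NCI-H1993 and 5 of 7 in NCI-H2347. Only 3 of the 6 NCI-H1993 peaks and 7 of the 9 NCI-H2347 peaks were then left. CD36 thus supplied 3 of the 6 NCI-H1993 peaks, in the widest of the 8 windows. The densities without it were not computed.

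**Figure D1:**
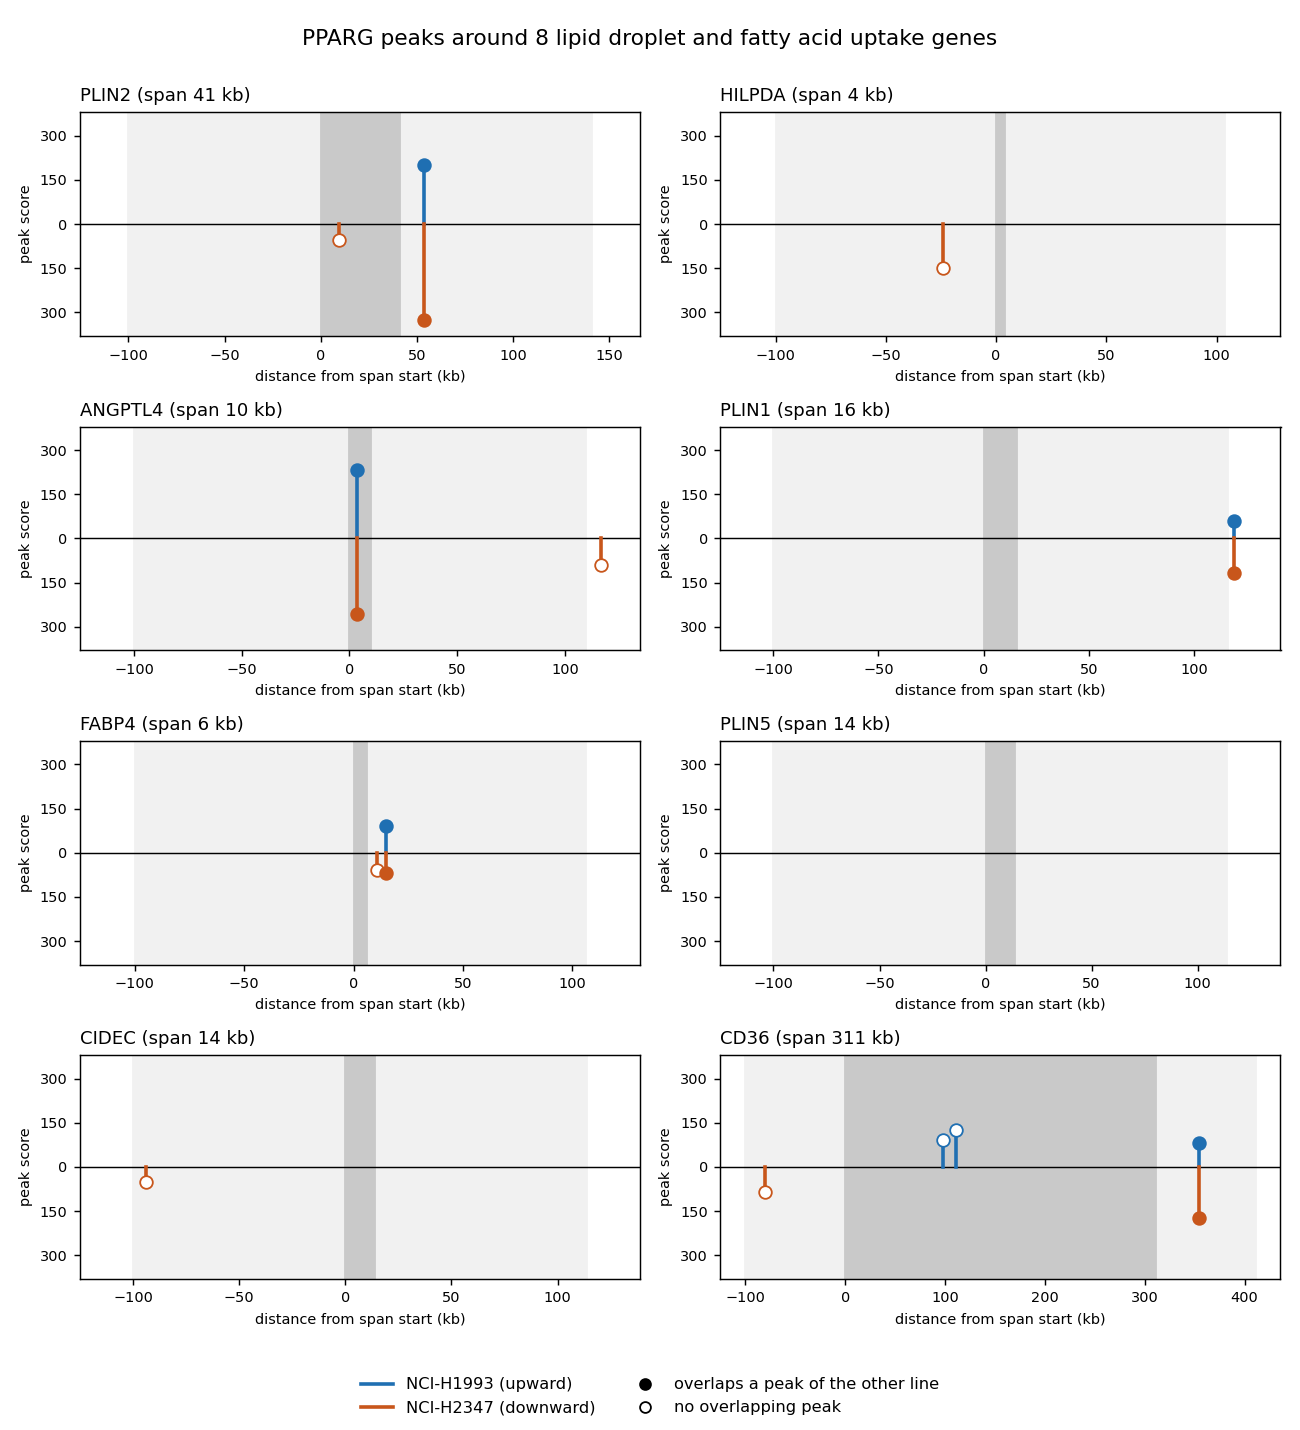
Score of each peak (vertical axis, upward for NCI-H1993 and downward for NCI-H2347) against its distance in kb from the start of the gene's span on hg19 (horizontal axis), 1 panel per gene. Dark grey is the gene span and light grey the 100 kb on each side. Filled points overlap a peak of the other line, and they are seen at PLIN2, ANGPTL4, FABP4 and CD36, and just outside the window of PLIN1.

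Sites occupied in both lines were found at the 4 genes that had a peak in NCI-H1993, 1 site each. A site counted as shared where a peak of each line had at least 1 bp in common. Of the 6 NCI-H1993 peaks near the genes 4 were shared, where 34.2% of the whole list were, and of the 9 NCI-H2347 peaks 4 were shared, where 21.7% of the list were. Among the 214 kb windows, 3.26% held a shared site, against 4 of the 8 genes. The paired peaks lay about as close together as overlapping pairs of the lists in general. Their midpoints were 27.5 to 161.5 bp apart, the latter at CD36. The median over all 486 overlapping pairs was 76.2 bp (quartiles 33.5 and 134 bp). Each paired peak was covered over 84.5% to 100% of its width by its partner.

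**Figure D2:**
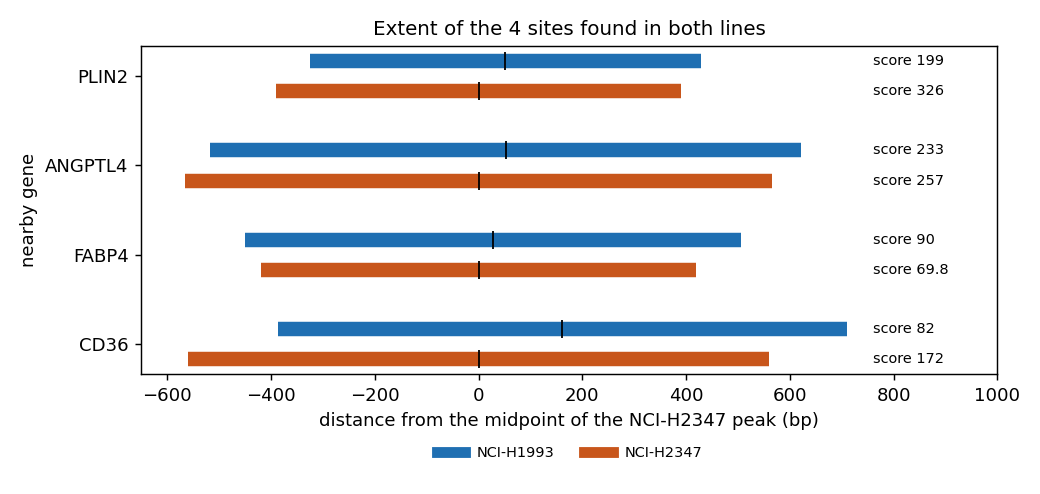
Extent of the 4 shared sites in bp from the midpoint of the NCI-H2347 peak, with 1 bar per line, a tick at each midpoint and the score printed at the right. The bars of the lines overlap almost entirely at PLIN2, ANGPTL4 and FABP4, and the CD36 bars are offset by 161.5 bp.

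Of the droplet coat genes, PLIN2, the perilipin present on droplets of most cell types, had the strongest peak of any of the 8 genes in NCI-H2347. That peak was at chr9:19161346-19162124, with a score of 325.76, rank 47 from the top of its list, and 97.9% of the list scored lower. Its partner in NCI-H1993 was at chr9:19161410-19162163, with a score of 199.22 and rank 43, and 97.0% of that list scored lower. The score, a value the authors gave every peak, was read only within a list, since a deeper library gives higher scores. The midpoints lay 12.7 kb and 12.8 kb beyond the higher end of the PLIN2 span. PLIN2 is read toward lower coordinates, so the shared site was on its upstream side. NCI-H2347 had a further peak inside the span, at chr9:19117136-19117891, but it was near the bottom of the list, with a score of 54.02 and 12.8% of the list lower, and no NCI-H1993 peak overlapped it. The PLIN2 span of the rule is 41 kb, while the RefSeq model on GRCh38.p14 is 19.1 kb long, so the distance to the start of the shorter model was not computed.

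PLIN1, the main perilipin of fat cells, had no peak within 100 kb in either line, and its nearest peaks lay just outside that limit. They were at chr15:90325305-90325904 in NCI-H1993 (score 58.67) and at chr15:90325209-90326062 in NCI-H2347 (score 116.21). These overlapped each other and both lay 103 kb from the span. The next peak outside the limit was at ANGPTL4 in NCI-H2347, 107 kb from the span with a score of 91.32, and the outermost one inside was that of CIDEC, at 93.9 kb. PLIN5, the perilipin of oxidative tissues such as heart, also had no peak within 100 kb. Its nearest site was again shared, 234 kb from the span, at chr19:4769336-4769956 in NCI-H1993 (score 57.15) and chr19:4769505-4770238 in NCI-H2347 (score 252.31). The NCI-H2347 peak there scored higher than 95.2% of its list and the NCI-H1993 peak higher than 25.4% of its own. This shared site lay on the higher side of PLIN5. On GRCh38.p14 the protein-coding genes on the higher side within 100 kb of PLIN5 are LRG1 and SEMA6B. The next gene on the other, lower side is PLIN4, another perilipin gene.

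CIDEC and HILPDA had a peak in NCI-H2347 alone. At CIDEC the peak was weak and distant, at chr3:9813762-9814363, with a score of 52.57 above 8.22% of the list. At rank 2042 it was lost when the NCI-H2347 list was limited to its 1419 best peaks, as many as NCI-H1993 had, while the HILPDA peak at rank 363 was kept. The CIDEC peak lay on the lower side, 93.9 kb from the span. CIDEC is read toward lower coordinates, so this was its downstream side, and the region is crowded, with 13 protein-coding genes within 100 kb of CIDEC on GRCh38.p14. The nearest NCI-H1993 peak was 2560 kb from CIDEC. At HILPDA, which holds back the lipase ATGL on the droplet and is known as a hypoxia-induced gene, the peak was at chr7:128070324-128071838. It was the widest of the 15 peaks, 1515 bp, where the upper quartile of the NCI-H2347 list was 993 bp. Its score of 150.61 was above 83.7% of the list, and it lay 23.9 kb from the span on the lower side, which is upstream of HILPDA. On GRCh38.p14, PRRT4 and IMPDH1 are on that side within 100 kb of HILPDA. The nearest NCI-H1993 peak was 596 kb away, and a peak missing from a list shows only that none passed the authors' threshold there.

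ANGPTL4, a secreted inhibitor of lipoprotein lipase, had 1 peak in each line and the only shared site inside a gene span. The peak was at chr19:8431841-8432980 in NCI-H1993, with a score of 232.97, the highest of the 6 peaks in that line, rank 20 from the top and above 98.6% of the list. In NCI-H2347 it was at chr19:8431793-8432924, with a score of 257.27, rank 99 and above 95.6% of the list. The midpoints lay 3.41 kb and 3.36 kb after the start of the 10 kb span, and 52 bp apart. ANGPTL4 is read toward higher coordinates, so the site was within the gene body, downstream of the start, and outside the promoter window printed for this gene. ANGPTL4 and PLIN2 were the genes with a peak in the top 10% of both lists, and no other of the 15 peaks was in the top 10% of its own.

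Of the uptake and transport genes, FABP4, the fatty acid binding protein best known from fat cells and macrophages, had a shared site of moderate score. It was at chr8:82404465-82405421 in NCI-H1993, with a score of 90.03 above 70.4% of the list, and at chr8:82404497-82405334 in NCI-H2347, with a score of 69.82 above 41.7% of the list. The midpoints were 8.94 kb and 8.91 kb beyond the higher end of the span, the upstream side of FABP4. The midpoints were 27.5 bp apart, the smallest distance of the 4 shared sites. NCI-H2347 had another peak between this site and the gene, at chr8:82400175-82401363, 4.77 kb from the span, with a score of 57.87 above 22.8% of the list. The NCI-H2347 peaks were 4.15 kb apart, and 7.51% of the peaks in that list had another peak as close. On GRCh38.p14, FABP4 lies among other members of its family, with PMP2 and FABP9 on the lower side and FABP12 on the higher side. The lists do not say which of these genes a site acts on.

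CD36, a membrane receptor that takes up long-chain fatty acids, had 3 peaks in NCI-H1993 and 2 in NCI-H2347. The shared site was 43.2 kb and 43.1 kb beyond the higher end of the span, which is downstream of CD36. It was at chr7:80351676-80352771 in NCI-H1993, with a score of 81.96 above 63.3% of the list, and at chr7:80351503-80352621 in NCI-H2347, with a score of 172.41 above 88.2% of the list. The other NCI-H1993 peaks were both inside the span, at chr7:80095849-80096875 (score 91.21) and chr7:80108890-80109791 (score 124.06), 13.0 kb apart. NCI-H2347 had no peak inside the span, and its other peak was at chr7:79917526-79918175, on the lower side and 80.2 kb from the span, with a score of 83.69. Apart from the shared site the lines thus had different CD36 peaks. On GRCh38.p14 the protein-coding neighbours of CD36 within 100 kb are GNAT3 on the lower side and SEMA3C on the higher side, that of the shared site. The CD36 span of the rule is 311 kb, while the RefSeq model is 77.1 kb long. A peak inside the span is therefore not shown to lie within the shorter CD36 model.

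The 6 NCI-H1993 peaks had scores of 81.96 to 232.97, with a median of 108, and all 6 were above the median of the list, 69.8. The 9 NCI-H2347 peaks had scores of 52.57 to 325.76, with a median of 83.7, and 5 of 9 were above the list median of 77.1. In NCI-H2347 the 4 shared peaks scored 69.82 to 325.76 and the 5 unshared ones 52.57 to 150.61, so the groups overlapped. They also overlapped in NCI-H1993, with 81.96 to 232.97 for the 4 shared and 91.21 to 124.06 for the 2 unshared peaks. Widths were 754 to 1140 bp in NCI-H1993 (median 992 bp, list median 731 bp) and 602 to 1515 bp in NCI-H2347 (median 838 bp, list median 832 bp).

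**Figure D3:**
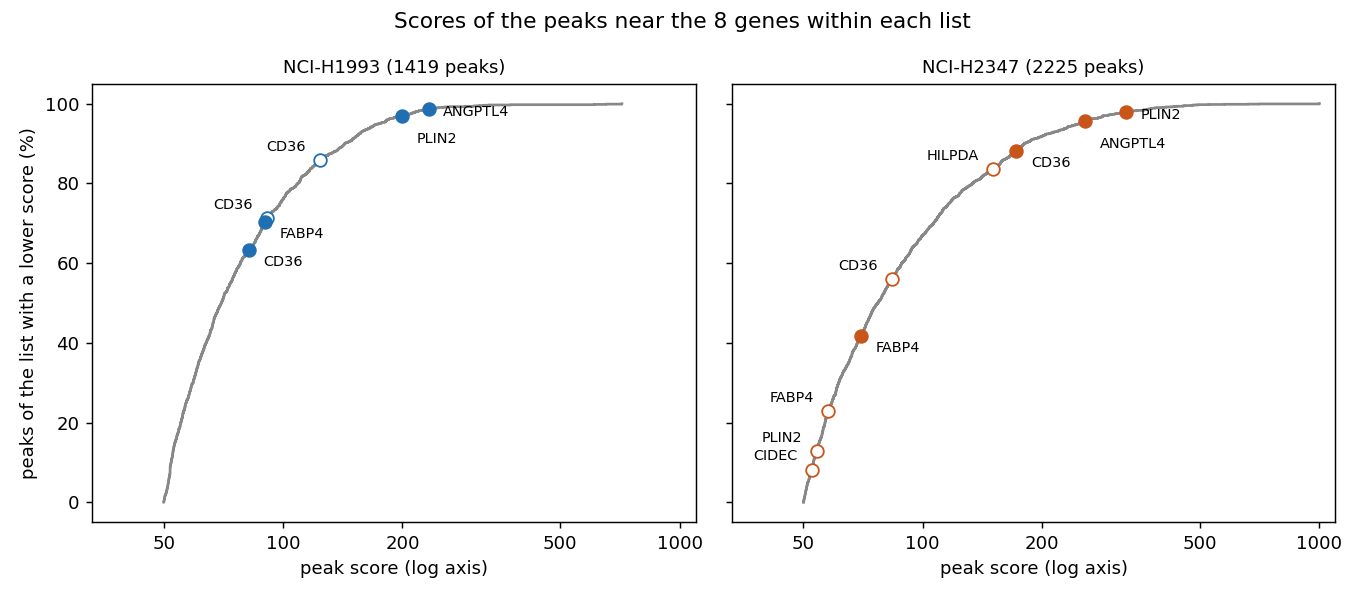
Percentage of peaks of the same list with a lower score (vertical axis) against peak score on a log axis, for NCI-H1993 at the left and NCI-H2347 at the right. The grey line is the whole list, and points are the peaks near the genes named beside them, filled where the peak is shared. The shared PLIN2 and ANGPTL4 peaks sit above 95% in both lists, and the CIDEC peak and 1 PLIN2 peak sit below 13% in NCI-H2347.

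The peaks lay on every side of the genes. In NCI-H1993, 3 were inside a span, 3 on the higher side and 0 on the lower side. In NCI-H2347 the numbers were 2, 4 and 3. When the limit was narrowed to 25 kb, 4 genes kept a peak in NCI-H1993 (PLIN2, ANGPTL4, FABP4 and CD36), and 2.84% of 64 kb windows held one. The CD36 window at this limit is 361 kb wide, and the gene counted through the 2 peaks inside its span. Windows of that width held a peak in 13.4% of cases for NCI-H1993 and 18.6% for NCI-H2347, and without CD36 the NCI-H1993 count was 3 of 7 genes. In NCI-H2347 4 genes had a peak within 25 kb (PLIN2, ANGPTL4, FABP4 and HILPDA), none of them CD36, where 4.23% of 64 kb windows did. A shared site was within 25 kb of PLIN2, ANGPTL4 and FABP4, and 1.02% of windows held one. The shared site of PLIN2, also its only peak in NCI-H1993, counted here through the 41 kb span of the rule. The distance of that site from the 19.1 kb RefSeq model was not computed, so PLIN2 might not count at 25 kb by that model. When the limit was widened to 200 kb, PLIN1 joined the genes with a shared site, which made 5 of 8, where 5.98% of 414 kb windows held one.

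**Figure D4:**
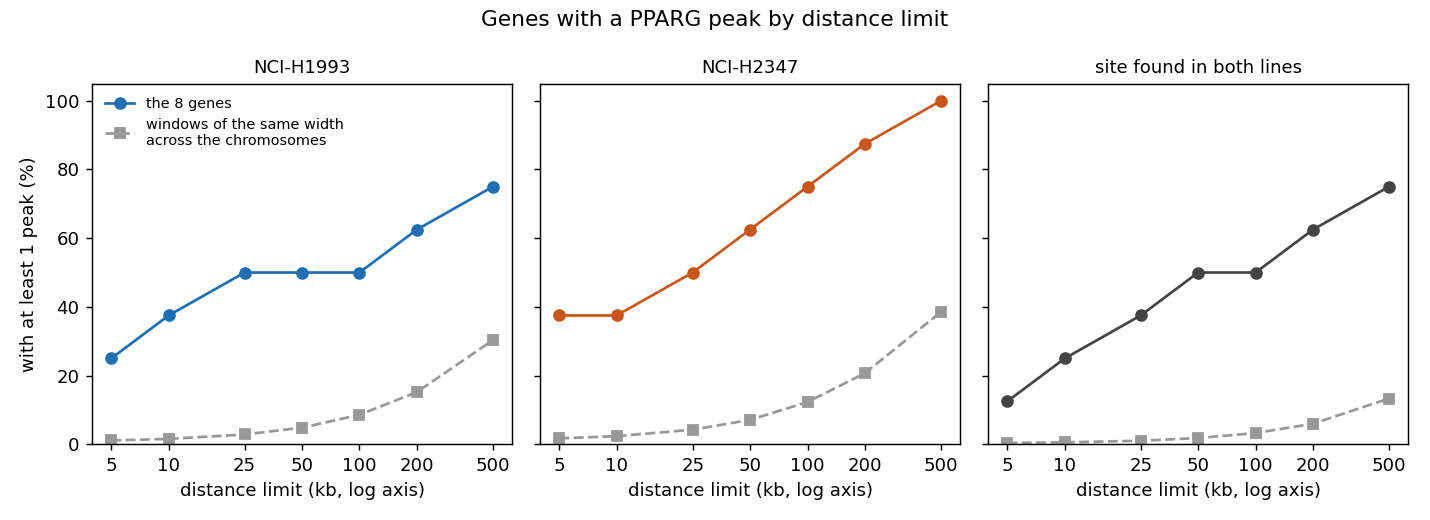
Percentage of the 8 genes with at least 1 peak midpoint (circles) and of chromosome windows of the width around a gene with the median span (squares), against the distance limit in kb on a log axis, for NCI-H1993, NCI-H2347 and shared sites. At each limit drawn the genes lie above the windows, 50% against 8.57% for NCI-H1993 and 75% against 12.3% for NCI-H2347 at 100 kb. CD36 counts among the genes at 100 kb in both lines although its own window is wider than these, and without it the counts are 3 of 7 and 5 of 7 genes. In NCI-H1993 CD36 counts at each smaller limit too. At 5 kb, against windows of 24 kb, ANGPTL4 and CD36 were the only genes counted in that line.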

How the data were processed

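PPARG peak lists of 1 ChIP-seq library per line were used. Inputs were not used here. Per the submitters' processing notes, the peaks come from MACS 1.4.2 and hg19. The aligner, the filters on reads, the calling threshold and the role of the input are not given in the sources used here. Each deposited list holds 5 columns with the position, name and score of each peak, the authors' own value. Starts were converted to 1-based positions.

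Gene spans were those of the rule, in whole kb. The 8 genes and the rule were chosen with earlier results of these data known. All 8 genes and each of the 15 peaks are named. Distances run from the span to the peak midpoint, sharing is an overlap of at least 1 bp, and background windows run end to end on each chromosome from its lowest to its highest peak midpoint over both lists. No test was made, since there was 1 library per line. Other genes of the pathway were not placed, because gene positions on hg19 were not used. The RefSeq table (GRCh38.p14) gave names, neighbours, model lengths and promoters, and all 8 symbols matched. Alternatives were other distances, any base of a peak in place of its midpoint, a score of at least 100, equal list lengths, other definitions of sharing and fewer mismatches. The code was tested on simulated lists. Python 3.11.15, numpy 2.4.6, pandas 2.3.3 and matplotlib 3.10.9 were used.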

Additional observations from a re-analysis of the deposited data

How the results depend on the processing

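Of 33 alternative values, 28 stayed within 1.5 times the reported count. With a score of at least 100, 3 of the 6 NCI-H1993 peaks and 4 of the 9 NCI-H2347 peaks near the genes were left, since fewer peaks entered the count. Of the whole NCI-H1993 list, 74.9% scored below 98.18 and 85.8% below 124.06. Of the whole NCI-H2347 list, 61.6% scored below 91.32 and 74.9% below 116.21. The exact share of each list at this cutoff was not computed, and the cutoff may not be equally strict in both lists. Shared sites fell from 4 to 2 when both lists were limited in this way, those of PLIN2 and ANGPTL4. With 1 or 0 mismatches to DR1, 0 of the 6 genes in the promoter table had a match, against 1 with 2 mismatches. Keeping only as many top-scoring NCI-H2347 peaks as NCI-H1993 had left 6 peaks near 5 genes, without CIDEC. The other definitions of sharing each gave 4 sites. No paired analysis was possible because each line had a single ChIP library. Absence of a site from a list is not absence of binding, because the depth is unknown and values below the threshold are not in the lists.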

Other observations

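Outside the windows, from 100 to 500 kb from the nearest of the 8 genes, each list held 10 peaks, and 4 of the 10 (40%) were shared in each. Their scores ran from 51.05 to 91.71 in NCI-H1993 (median 62.2) and from 50.33 to 252.31 in NCI-H2347 (median 104). The peaks within 100 kb had a higher median than the ring in NCI-H1993, 108, but a lower one in NCI-H2347, 83.7. No NCI-H1993 peak in this ring reached the scores of the ANGPTL4 and PLIN2 sites. In NCI-H2347 the highest was the shared site 234 kb from PLIN5. The density of peaks in the ring was not computed. The density in the gene windows was thus compared only with the chromosomes as a whole, not with the sequence around the genes. Further out, 2 shared sites on the higher side of HILPDA stood high in both lists. The nearer was 596 kb from HILPDA, with a score of 154.54 in NCI-H1993, above 92.1% of the list, and 319.57 in NCI-H2347, above 97.7%. The farther was 995 kb away, with scores of 163.54 and 255.26. On GRCh38.p14, METTL2B is the next protein-coding gene on that side, within 100 kb of HILPDA, so it is not named as the gene nearest these sites. The genes around the sites were not looked up.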
